A study of Pyrus pyrifolia with 6 samples.

Results

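The genes described here are those that the deposited gene table places on NW_008988240.1, a scaffold of the Chinese white pear (Pyrus × bretschneideri) reference genome. They number 119 of 42966 genes in the table, lie between positions 4525 and 623805, and include 0 loci that the authors assembled anew. The scaffold was chosen on the difference between russet and green skin that the same libraries show, and position 150000 was taken as the dividing point for the same reason. Every count, fold change and median of its genes is therefore a description of these libraries and tests nothing.

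Skin of sand pear (Pyrus pyrifolia) was taken at 80 DAA from healthy, open-grown trees of 2 lines, russet ‘Niitaka’ and green ‘Suisho’, with 10 fruits pooled in each sample and 3 libraries per line. ‘Suisho’ is a bud mutant of ‘Niitaka’, so each line is 1 clonally propagated genotype, and anything else that differs between their trees cannot be told apart from skin type. The libraries are called A1, A2 and A3 (russet) and B1, B2 and B3 (green), and their values are given in that order. Levels are FPKM, by name fragments per kilobase of exon scaled to the mapped fragments of the library, although the counts behind them include single ends of read pairs. The libraries are described as biological replicates, but whether they came from separate trees is not stated in the material used here, and adjusted p-values measure only the spread between them.

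Green pear skin is sealed by a cuticle of cutin and wax over a living epidermis, whereas russet skin is covered by periderm, a cork layer whose dead outer cells carry suberin in their walls. A bud mutant, or sport, arises from a shoot whose meristem acquired a heritable change. Genes that lie next to each other on a scaffold usually have unrelated functions, so that a shift shared by neighbours is described by position and not by pathway. Of the 119 genes, 10 are placed in a metabolic or cellular pathway or a Gene Ontology class by the study's lists, which hold genes selected on these same libraries. For the remaining members the table gives an identifier, a strand and a position only, and no role is stated for them.

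The libraries held 31381552 to 42729578 reads behind their FPKM values, and a single read on 1000 bp of exon equals 0.0234 to 0.0319 FPKM. Over all genes, 30161 averaged 0.1 FPKM or more and were tested, of which 2427 were higher and 2198 lower in russet skin at an adjusted p under 0.05 (limma, Benjamini-Hochberg over all genes tested), with a median log2 fold change of 0.00. Of 12 putative MYB41, MYB93/MYB107 and MYB1 homologs, a family of regulators in which MYB41 promotes suberin formation in Arabidopsis, 10 were higher in russet skin, 1 did not pass the threshold and 1 was under the minimum. Of 3 putative homologs of the cuticle regulator WIN1/SHN1, 2 were lower in russet skin and 1 did not pass. The study chose both lists on these libraries, so they are no independent check of the labels.

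On the scaffold, 94 of the 119 genes averaged 0.1 FPKM or more and could be tested. Of these, 8 were higher and 37 lower in russet skin, and 49 did not pass the threshold. Both directions were unevenly placed. Of the 17 genes tested that start before position 150000, 6 were higher and 0 lower in russet skin and the median log2 fold change was 0.43, whereas of the 77 that start after it, 2 were higher and 37 lower, at a median of -0.64, a ratio of 0.644. Over all genes tested, 8.05% were higher and 7.29% lower. Nothing is read from this background, since the scaffold was chosen on the same contrast. Without library A2, 24 of the 77 genes after position 150000 were called, 23 of them lower, and of the 37 lower calls 21 held in each of the 6 fits that left out a library. The 3 russet libraries all lay above the 3 green ones for 8 genes before position 150000 and for 2 genes after it, and all lay below them for 2 genes before it and 51 genes after it, where over all genes tested these shares were 17.2% and 15.9%.

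**Figure D1:**
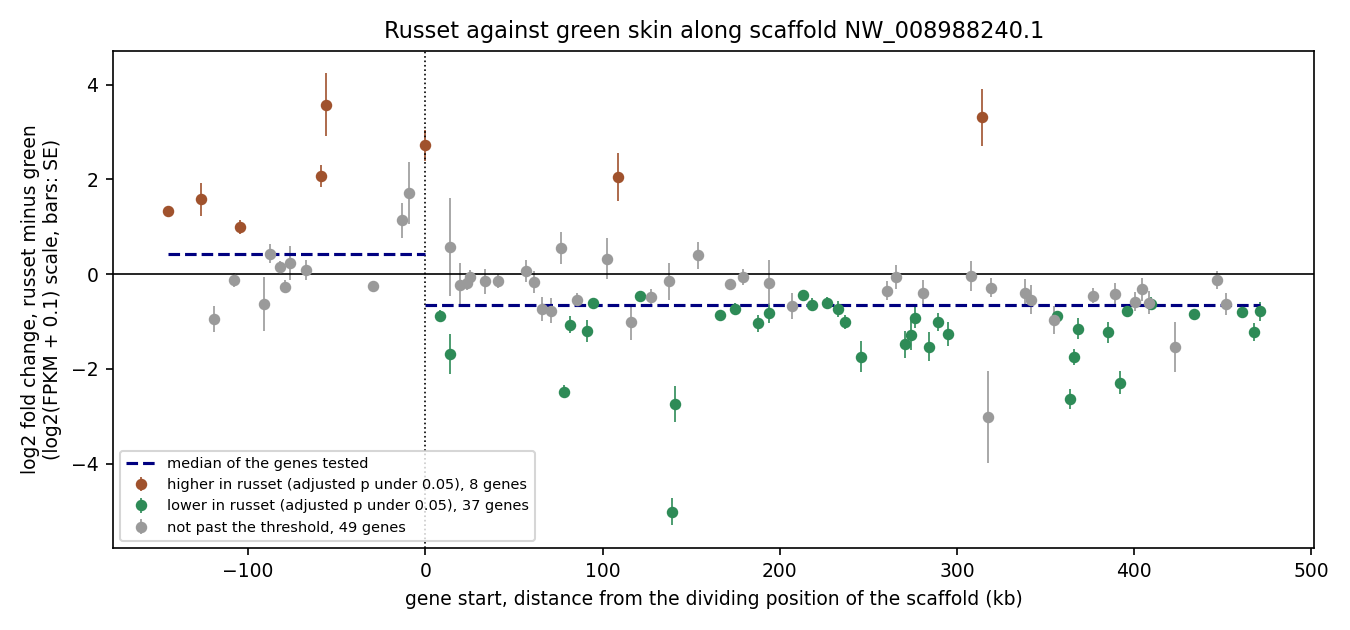
Log2 fold change of each of the 94 genes tested, russet minus green on the log2(FPKM + 0.1) scale, against the distance of its start from the dividing position (150000) in kb. Dots carry the standard error, colours give the call, and dashed lines mark the medians of 0.43 before and -0.64 after the dividing position, with 6 of 17 genes higher on the left and 37 of 77 lower on the right.

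**Figure D2:**
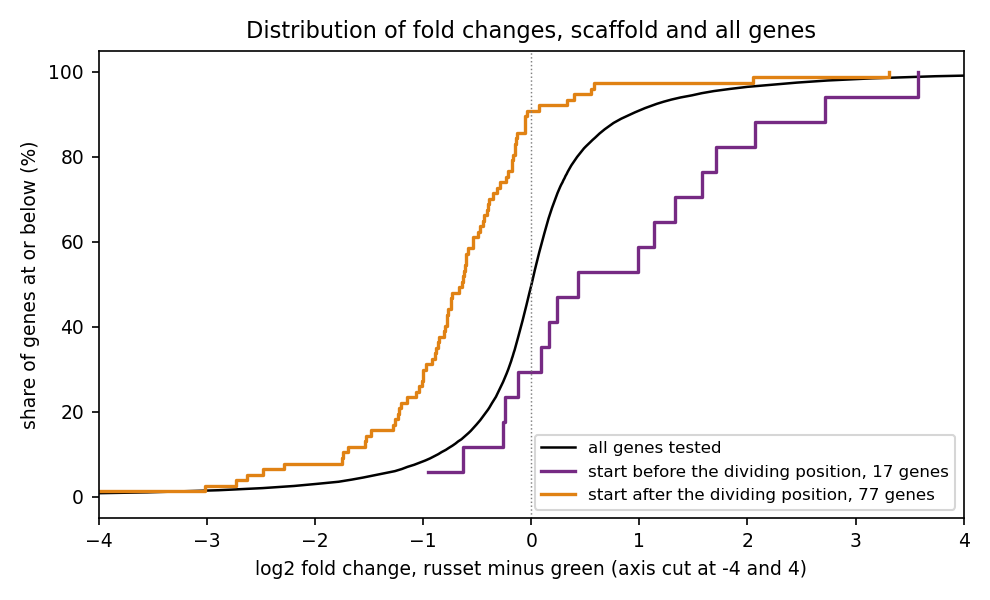
Cumulative share of genes (%) at or below each log2 fold change, russet minus green, for the 17 genes before and the 77 genes after the dividing position and for all 30161 genes tested (black). The curve of the genes after the dividing position lies to the left of the black one over most of its course, with its quartiles at -1.04 and -0.23 against -0.30 and 0.31 for all genes.

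The 27 genes that start before position 150000 were largely either near-silent or abundant. Of these, 10 were under 0.1 FPKM, 8 of them without a read in any library and the other 2 with 13 reads each, while 8 averaged 10 FPKM or more. The first of the scaffold, gene 103960879 (4525 to 5917, minus strand), is placed among the ribosome genes, which encode parts of the machinery of protein synthesis. It had 33.2, 30.5 and 31.7 FPKM in russet libraries, against 13.4, 12 and 12.3 FPKM in green libraries. All russet libraries lay above all green ones, with little spread in either line, and the gene was higher in russet skin at a log2 fold change of 1.33 ± 0.10. Every value given in this form is the log2 fold change, russet minus green, with its standard error (SE) from the fit. Gene 103960985 (23603 to 30147, minus strand) was near the limit of detection, with 0.183, 0.328 and 0.223 FPKM in russet libraries, against 0.0124, 0.0293 and 0 FPKM in green libraries. Its 57 and 3 reads in russet and green skin correspond to a ratio of 17.4 per unit of depth. The exact 95% Clopper-Pearson interval of 5.66 to 86.8 covers no more than counting error. It treats reads as independent, which the ends of a pair are not, so it is too narrow. The fitted log2 fold change of the gene was 1.58 ± 0.35, and it was called higher in russet skin. That call held in 2 of the 6 fits that left out a library and was lost with a pseudocount of 1.

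Gene 103960882 (30873 to 32069, minus strand) is placed in pyrimidine, purine and glutathione metabolism and in a class of acyl transferases. It had 7.83, 9.70 and 14.4 FPKM in russet libraries, against 22.1, 14.5 and 25.1 FPKM in green libraries. Its log2 fold change of -0.95 ± 0.28 did not pass the threshold, although all russet libraries lay below all green ones. It was called lower with the library number as a block, with median-ratio scaling and without library A3 or B2. The study's lists of genes selected on these libraries hold it, so the study's own call may differ. The next gene tested, 103960883 (41911 to 44953, plus strand), was among the most abundant genes of the scaffold, with 125, 124 and 142 FPKM in russet libraries, against 131, 164 and 132 FPKM in green libraries. The lines overlapped, at a log2 fold change of -0.12 ± 0.14. Gene 103960884 (45503 to 48027, minus strand) had 8.16, 7.18 and 7.47 FPKM in the russet libraries and 4.15, 3.78 and 3.46 FPKM in the green libraries and was higher in russet skin, by 0.99 ± 0.15 on the log2 scale. It lies between genes whose libraries overlapped, and its own libraries did not.

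Between positions 58700 and 84156 no gene passed the threshold. Gene 103960988 (62329 to 66728, minus strand) had 2.98, 3.37 and 2.69 FPKM in russet libraries, against 2.25, 1.85 and 2.55 FPKM in green libraries, with a log2 fold change of 0.43 ± 0.20. Gene 103960886 (67837 to 70763, minus strand) had 32.2, 30.6 and 31.9 FPKM in the russet libraries and 28.4, 24.9 and 31.7 FPKM in the green libraries, a log2 fold change of 0.16 ± 0.12. These russet and green values were separated in the first gene and overlapped in the second. Gene 103960887 (70876 to 73081, plus strand) had 136, 109 and 121 FPKM in russet libraries, against 135, 156 and 146 FPKM in green libraries, and gene 103960893 (82575 to 84156, plus strand) had 164, 151 and 117 FPKM in russet libraries, against 155, 153 and 101 FPKM in green libraries. Both belong with 103960883 to the abundant genes of this stretch, and their log2 fold changes were -0.26 ± 0.13 and 0.09 ± 0.22. In 103960893 the third library was the lowest of each line. Genes 103960885 and 103960888 had line means between 0.0636 and 0.571 FPKM, and their libraries overlapped.

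The pair 103960894 (91308 to 94489, plus strand) and 103960889 (94169 to 95811, minus strand) overlap by 321 bp on opposite strands. Whether counting used strand is not stated in the material used here, so reads in any exons they share may not be separable. Gene 103960894 had 1.87, 2.01 and 1.92 FPKM in russet libraries, against 0.353, 0.362 and 0.445 FPKM in green libraries, which is 5.0 times as much in russet skin, and a log2 fold change of 2.07 ± 0.23. Gene 103960889 had 1.84, 2.1 and 2.05 FPKM in russet libraries, against 0, 0 and 0.436 FPKM in green libraries, at a log2 fold change of 3.58 ± 0.66. Its green signal came from library B3 alone, with 0 FPKM in the other two, and 122 and 7 reads were behind its values in russet and green skin. Both genes were higher in russet skin, with all russet libraries above all green ones, and were called in every alternative run.

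The next gene tested, 103960895 (120755 to 134679, minus strand), had 60.6, 55.5 and 59.2 FPKM in russet libraries, against 64.7, 71.3 and 71.3 FPKM in green libraries, a narrow gap of -0.24 ± 0.10 on the log2 scale that did not pass the threshold. The next 3 genes tested, up to the dividing position, all had higher means in russet skin. Gene 103960896 (136838 to 138160, minus strand) had 1.99, 1.46 and 3.13 FPKM in russet libraries, against 0.654, 0.807 and 1.32 FPKM in green libraries, and gene 103960897 (140525 to 146169, minus strand) had 13.7, 9.81 and 38.7 FPKM in russet libraries, against 2.70, 4.33 and 12.2 FPKM in green libraries. In both genes the third library was the highest of its line, and the fold changes of 1.14 ± 0.37 and 1.71 ± 0.66 had wide errors and did not pass. They were called higher with the library number as a block. Gene 103960898 (149825 to 153040, minus strand), the last to start before position 150000, had 1.15, 0.841 and 0.975 FPKM in the russet libraries and 0.0783, 0.0231 and 0.104 FPKM in the green libraries. It was higher in russet skin at 2.72 ± 0.33, from 142 and 9 reads in russet and green skin. Start means the lower coordinate on either strand, so this gene is placed before position 150000 although most of its span lies beyond it.

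The first gene to start after position 150000 is 103960899 (158324 to 160557, plus strand), so the members on either side of the dividing position start at 149825 and 158324. Gene 103960899 is placed in the pentose phosphate pathway, which supplies NADPH and pentoses, and in carbon fixation and amino acid biosynthesis. It had 21.4, 17.4 and 19.1 FPKM in russet libraries, against 32.6, 35.9 and 37.8 FPKM in green libraries, and was lower in russet skin at -0.88 ± 0.12, a ratio of 0.544. Across these neighbours the log2 fold change was 2.72 ± 0.33 on one side and -0.88 ± 0.12 on the other, with no overlap of lines in either.

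The 10 genes tested that start between 158324 and 211372 had a median log2 fold change of -0.16, and 2 of them were lower in russet skin. The second of these calls was 103960903 (164027 to 166224, plus strand), which had 0.188, 0.224 and 0.0543 FPKM in russet libraries, against 0.939, 0.720 and 0.464 FPKM in green libraries, a log2 fold change of -1.69 ± 0.42. This call rested on 40 and 174 reads in russet and green skin and held in 1 of the 6 fits that left out a library. The span of 103960903 overlaps that of 103960902 (164187 to 167630, minus strand) by 2038 bp on the opposite strand. Their reads may not be separable, and 103960902 had far more of them, 2140 and 1367 in russet and green skin. Gene 103960902 had the widest spread of the scaffold's abundant genes, with 22.4, 55.4 and 6.25 FPKM in russet libraries, against 27.7, 25.8 and 3.18 FPKM in green libraries. Library 3 of each line was far below the others, and its log2 fold change of 0.58 ± 1.03 had a standard error larger than itself.

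The remaining genes of this stretch overlapped between the lines. Gene 103960906 (173304 to 174959, plus strand) had 15.7, 17.3 and 12.2 FPKM in russet libraries, against 16.2, 17.6 and 16.8 FPKM in green libraries, with a log2 fold change of -0.18 ± 0.15. Gene 103960905 (174963 to 180510, minus strand) had 34.2, 31.0 and 35.8 FPKM in the russet libraries and 35.3, 29.9 and 40.5 FPKM in the green libraries, with a log2 fold change of -0.06 ± 0.14. These 2 neighbours are read from opposite strands and their fold changes were close to 0. Gene 103960907 (183497 to 187106, minus strand) had 1.26, 0.742 and 0.993 FPKM in russet libraries, against 1.23, 1.08 and 0.988 FPKM in green libraries. Gene 103960908 (190733 to 195785, minus strand) had 10.2, 12.2 and 13.4 FPKM in the russet libraries and 11.4, 14.5 and 13.4 FPKM in the green libraries. Neither gene passed the threshold, at -0.15 ± 0.27 and -0.14 ± 0.15. Gene 103960909 (206794 to 211336, plus strand) had 2.80, 2.08 and 3.08 FPKM in russet libraries, against 2.64, 2.09 and 2.79 FPKM in green libraries, and 103960910 (211372 to 214011, minus strand) had 14.5, 12.9 and 18.1 FPKM in the russet libraries and 13.6, 15.1 and 23.6 FPKM in the green libraries. Their log2 fold changes were 0.07 ± 0.23 and -0.17 ± 0.23, and 103960904, with means of 0.261 FPKM in russet and 0.336 FPKM in green skin, did not pass either.

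From gene 103960913 at position 215807 to the end of the scaffold, 82 genes follow, of which 67 were tested. Of these, 35 were lower and 2 higher in russet skin, 62 had a log2 fold change below 0, and the median was -0.74, a ratio of 0.598. Over all 30161 genes tested, 14968 had a log2 fold change below 0. The summed expression of the genes of this stretch was 473, 445 and 479 FPKM in the russet libraries, against 802, 811 and 823 FPKM in the green libraries. The mean sums were 466 ± 18.1 FPKM for russet skin and 812 ± 10.5 FPKM for green skin (SD, n = 3 each), a ratio of 0.573. In the skin as a whole, fewer cells that express these genes and less RNA of them per cell cannot be told apart.

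**Figure D3:**
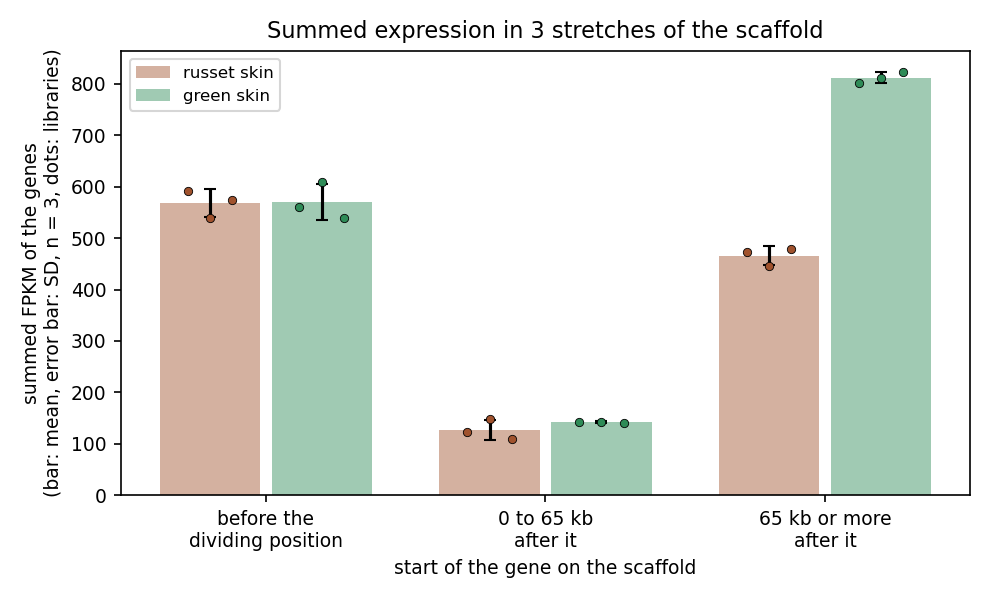
Summed FPKM of the scaffold's genes in 3 stretches, for russet (brown) and green (green) skin, with bars for the mean, error bars for the SD over 3 libraries and dots for single libraries. Russet and green sums overlap before the dividing position (568 and 570 FPKM on average), overlap over the next 65 kb (127 and 142 FPKM) and are apart beyond it (466 and 812 FPKM). The boundary at 65 kb was set after the values were seen, so the contrast across it is a description only.

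The stretch opens with genes of mixed direction. Gene 103960913 (215807 to 219328, plus strand) had 1.09, 0.840 and 1.19 FPKM in russet libraries, against 1.83, 2.06 and 1.48 FPKM in green libraries, at -0.73 ± 0.25 on the log2 scale, and 103960912, at 0.442 FPKM in russet and 0.826 FPKM in green skin on average, had -0.77 ± 0.26. Neither passed, although the libraries of the lines did not overlap in either gene. Gene 103960914 (226484 to 228433, plus strand) had a higher mean in russet skin but overlapping libraries, with 10.5, 8.60 and 14.9 FPKM in russet libraries, against 4.76, 7.98 and 11.3 FPKM in green libraries. Gene 103960915 (228522 to 230320, minus strand), its neighbour on the other strand, had 2.79, 2.69 and 2.71 FPKM in the russet libraries and 14, 17.1 and 16.2 FPKM in the green libraries. It was lower in russet skin at -2.48 ± 0.14, which is 5.77 times as much in green skin. Gene 103960994 (231515 to 235108, plus strand) had 3.67, 4.89 and 4.63 FPKM in russet libraries, against 8.15, 8.92 and 10.9 FPKM in green libraries, and was lower in russet skin at -1.07 ± 0.18.

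Gene 103960916 (235376 to 239476, minus strand) had 6.42, 7.03 and 8.07 FPKM in russet libraries, against 10.6, 9.28 and 11.6 FPKM in green libraries. Its log2 fold change of -0.54 ± 0.15 did not pass, and the gene was called lower with the library number as a block, with voom and with median-ratio or quantile scaling. Gene 103960917 (241352 to 243844, minus strand) had 1.47, 0.931 and 1.08 FPKM in the russet libraries and 2.39, 3.00 and 2.91 FPKM in the green libraries, and was lower in russet skin at -1.20 ± 0.24. Gene 103960918 (244876 to 248019, plus strand) had 59.0, 56.1 and 51.4 FPKM in russet libraries, against 83.5, 81.9 and 86.9 FPKM in green libraries, and was lower at -0.60 ± 0.10. It had the highest mean of the genes after position 150000 in russet and in green skin, and the ratio of these means was 0.660. Gene 103960919 (252567 to 253858, plus strand) had 1.5, 1.55 and 0.552 FPKM in the russet libraries and 0.955, 1.10 and 0.584 FPKM in the green libraries, with overlapping lines and a log2 fold change of 0.33 ± 0.44.

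Gene 103960920 (258857 to 262923, plus strand) was 1 of 2 genes after position 150000 that were higher in russet skin. It had 2.50, 1.76 and 0.811 FPKM in russet libraries, against 0.505, 0.345 and 0.130 FPKM in green libraries, at 2.05 ± 0.51. In each line the first library was the highest and the third the lowest, and the call held in 1 of the 6 fits that left out a library. Gene 103960921 (266139 to 269637, minus strand) is placed in pyrimidine metabolism, which makes building blocks of nucleic acids. It had 3.98, 1.29 and 2.85 FPKM in russet libraries, against 5.32, 4.51 and 5.30 FPKM in green libraries, and did not pass at -1.0 ± 0.38. Since the study's lists hold genes selected on these libraries, the study's own call on this gene may differ.

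Gene 103960922 (271368 to 276216, plus strand) had 10.6, 11.9 and 10.6 FPKM in the russet libraries and 13.9, 15.2 and 16.8 FPKM in the green libraries, and was lower in russet skin at -0.47 ± 0.12. Gene 103960923 (277144 to 278284, plus strand) had 6.86, 5.66 and 6.30 FPKM in russet libraries, against 10, 7.22 and 9.42 FPKM in green libraries, at -0.49 ± 0.17, and was called lower only with the library number as a block. Gene 103960926 (287430 to 288538, plus strand) had 0.576, 1.51 and 0.933 FPKM in the russet libraries and 0.908, 1.48 and 0.856 FPKM in the green libraries. Its lines overlapped and its log2 fold change was -0.15 ± 0.39, while the genes tested on both of its sides had separate lines.

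The largest fitted fold change of the scaffold was in 103960927 (288985 to 290308, plus strand), placed in ubiquitin-mediated proteolysis, the tagging of proteins for breakdown. It had 0 reads in the 3 russet libraries and 101 reads in the green ones, or 0, 0 and 0 FPKM in russet libraries, against 4.00, 2.85 and 2.66 FPKM in green libraries. With a floor of 3 reads over the russet group it was at least 36.8-fold lower in russet skin. This bound takes the green reads, 48, 29 and 24 by library, as exact and covers counting error of the russet group only. It also takes reads as independent, which the ends of a pair are not, so it is too tight. Gene 103960928 (290818 to 293177, minus strand), its neighbour on the minus strand, had 1.04, 0.403 and 1.07 FPKM in the russet libraries and 7.37, 4.51 and 5.59 FPKM in the green libraries, and was lower at -2.73 ± 0.38. Library A2 was the lowest in it. Gene 103960929 (303702 to 312484, minus strand) had 1.98, 2.55 and 3.81 FPKM in russet libraries, against 2.23, 1.63 and 2.19 FPKM in green libraries, with overlapping lines and a log2 fold change of 0.40 ± 0.28.

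From 103960930 on, 24 genes tested in a row had a log2 fold change below 0, up to 103960952 at position 460485, and 16 of them were lower in russet skin. Gene 103960930 (316126 to 318542, plus strand) was the most even of the abundant ones, with 43.5, 44.9 and 44.3 FPKM in russet libraries, against 78.9, 78.0 and 84.2 FPKM in green libraries. It was lower at -0.86 ± 0.09, a ratio of 0.550. Gene 103960931 (321763 to 324312, minus strand) had 13.8, 14.4 and 15.4 FPKM in the russet libraries and 16.5, 16.4 and 17.9 FPKM in the green libraries, and did not pass at -0.21 ± 0.11. Gene 103960995 (324711 to 326769, minus strand) had 6.49, 5.96 and 7.31 FPKM in russet libraries, against 11.0, 10.9 and 11.3 FPKM in green libraries, and was lower at -0.74 ± 0.13. Its green libraries were nearly equal. Gene 103960934 (329066 to 332203, minus strand) had 4.42, 5.75 and 5.04 FPKM in the russet libraries and 4.88, 5.09 and 5.90 FPKM in the green libraries, at -0.06 ± 0.16, with overlapping lines.

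Gene 103960937 (337952 to 340530, minus strand) had 3.73, 3.73 and 4.32 FPKM in russet libraries, against 8.16, 6.83 and 9.78 FPKM in green libraries, and was lower in russet skin at -1.04 ± 0.18. Gene 103960936 (343938 to 354958, minus strand) is placed in the pentose phosphate pathway and in glutathione metabolism, and in the coenzyme and cofactor binding classes. It had 8.10, 5.62 and 5.90 FPKM in the russet libraries and 11.0, 9.47 and 14.1 FPKM in the green libraries, and was lower at -0.81 ± 0.21. The short gene 103960935 lies within it on the same strand, at means of 0.277 FPKM in russet and 0.357 FPKM in green skin, so that their reads may not be separable. Gene 103960939 (356844 to 362911, plus strand) had 1.01, 0.621 and 0.763 FPKM in russet libraries, against 1.23, 1.21 and 1.51 FPKM in green libraries, at -0.67 ± 0.27, and did not pass. It overlaps 103960938 (362851 to 365263, minus strand) by 61 bp, which had 16, 16.1 and 16.5 FPKM in the russet libraries and 20.2, 23.1 and 22.7 FPKM in the green libraries, and was lower at -0.44 ± 0.10, the smallest fold change among the called genes of the scaffold.

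The next 4 genes tested, all on the plus strand, were lower in russet skin, but 103960940 and 103960943 kept the call in only 1 of the 6 fits that left out a library. Gene 103960940 (368098 to 373884, plus strand) had 5.24, 4.49 and 4.29 FPKM in russet libraries, against 7.75, 7.01 and 7.13 FPKM in green libraries, at -0.64 ± 0.14. Gene 103960941 (376802 to 380576, plus strand) had 7.13, 7.53 and 7.68 FPKM in the russet libraries and 11.7, 10.6 and 12 FPKM in the green libraries, at -0.61 ± 0.12. In both genes the highest russet library stayed well below the lowest green one. Gene 103960943 (382817 to 385771, plus strand) had 7.43, 7.05 and 6.11 FPKM in russet libraries, against 12.4, 9.28 and 13.2 FPKM in green libraries, at -0.74 ± 0.17. Gene 103960942 (386775 to 393912, plus strand), placed among hydrolases that act on ester bonds, had 5.77, 5.58 and 5.80 FPKM in the russet libraries and 11.1, 10.5 and 13.5 FPKM in the green libraries, at -1.01 ± 0.14. Its russet libraries were nearly equal, and it was close to 1 log2 unit lower. After it, 103960996 (395872 to 398074, minus strand) had 25 and 108 reads in russet and green skin, at levels from 0.0845 to 0.215 FPKM in russet and from 0.645 to 0.766 FPKM in green libraries, and was lower at -1.74 ± 0.32.

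Gene 103960998 (410364 to 414894, plus strand) had 3.14, 2.60 and 3.40 FPKM in russet libraries, against 3.52, 3.57 and 4.69 FPKM in green libraries, and 108868209 (415504 to 417178, plus strand) had 0.946, 1.25 and 0.966 FPKM in russet libraries, against 0.941, 1.11 and 1.25 FPKM in green libraries. Neither passed, at -0.35 ± 0.20 and -0.06 ± 0.25, and the lines overlapped in the second. Gene 103960999 (420848 to 423872, plus strand) had 1.05, 1.57 and 0.905 FPKM in the russet libraries and 3.94, 2.48 and 3.92 FPKM in the green libraries, and was lower in russet skin at -1.48 ± 0.29. Gene 103961000 (424194 to 424791, minus strand) had 0.641, 0.822 and 0.599 FPKM in russet libraries, against 2.41, 1.18 and 2.02 FPKM in green libraries, and was lower at -1.28 ± 0.32, a call that was lost with the library number as a block, with voom and without the filter on low values. Gene 103960945 (426185 to 429019, minus strand) had 9.37, 7.95 and 12.9 FPKM in the russet libraries and 15.5, 22.8 and 18.8 FPKM in the green libraries, and was lower at -0.92 ± 0.22. In these 3 called genes the libraries of each line spread by more on the log2 scale than those of 103960930 and 103960942.

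Gene 103960946 (430902 to 433385, minus strand) had 1.16, 0.768 and 0.873 FPKM in russet libraries, against 1.35, 1.30 and 1.08 FPKM in green libraries, with overlapping lines, at -0.39 ± 0.26. Gene 103960947 (433984 to 436379, plus strand), next to it, had means of 0.381 FPKM in russet and 1.25 FPKM in green skin and was lower at -1.53 ± 0.30. Gene 103960948 (439051 to 441253, minus strand) is placed in oxidative phosphorylation and the citrate cycle, the respiratory pathways of the mitochondrion. It had 43.8, 39.4 and 37.1 FPKM in the russet libraries and 83.6, 101 and 61.4 FPKM in the green libraries, the highest green mean after 103960918, and was lower at -1.0 ± 0.19, a ratio of 0.489. Gene 103960951 (445171 to 449146, minus strand) had 1.71, 1.40 and 1.97 FPKM in russet libraries, against 4.56, 3.03 and 5.22 FPKM in green libraries, and was lower at -1.26 ± 0.26. The last gene of this row, 103960952, had 0.321 FPKM in russet and 0.332 FPKM in green skin on average and did not differ by more than its error.

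Gene 103960953 (464190 to 464989, plus strand) broke the row as the other gene after position 150000 that was higher in russet skin. Its levels were 2.53, 0.419 and 1.58 FPKM in russet skin, against 0, 0.0506 and 0.0570 FPKM in green skin, from 95 and 2 reads in russet and green skin. The ratio per unit of depth was 43.5, with an exact 95% Clopper-Pearson interval of 11.7 to 364. That interval covers no more than counting error and is too narrow, since it takes the ends of a read pair as independent. The fitted log2 fold change was 3.31 ± 0.61. With voom weights on the recovered reads neither this gene nor 103960920 was called. The next gene, 103960954 (467290 to 467977, minus strand), had 0.600, 1.5 and 0.0347 FPKM in russet libraries, against 1.85, 10.4 and 3.80 FPKM in green libraries. Its fold change of -3.02 ± 0.97 was large but the spread within each line was as well, and it was called lower only with the library number as a block.

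From 103960954 to the last gene of the scaffold, 25 genes tested in a row had a log2 fold change below 0, of which 12 were lower in russet skin. Gene 103960955 (469285 to 471976, minus strand) had 7.74, 5.36 and 8.14 FPKM in russet libraries, against 9.80, 8.63 and 7.38 FPKM in green libraries, and 103960958 (491656 to 494427, minus strand) had 9.70, 12 and 19.6 FPKM in russet libraries, against 15.9, 16.4 and 26.9 FPKM in green libraries. The lines overlapped in both, at -0.29 ± 0.20 and -0.54 ± 0.31, and 103960957, at 0.449 FPKM in russet and 0.621 FPKM in green skin, overlapped too. In 103960958 the third library was the highest of each line, and the gene was called lower with the library number as a block. Gene 103960959 (504525 to 506362, minus strand) had 1.48, 3.32 and 2.77 FPKM in the russet libraries and 4.33, 4.73 and 5.28 FPKM in the green libraries, at -0.97 ± 0.30, and was likewise called lower with the block only. Gene 103960960 (506587 to 509807, plus strand) is placed in the proteasome, the complex that degrades tagged proteins. It had 14.6, 11.9 and 13.7 FPKM in russet libraries, against 24.3, 24.2 and 25.9 FPKM in green libraries, and was lower at -0.89 ± 0.11.

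Genes 103960961, 103960962 and 103960964 follow each other and were all lower in russet skin. Gene 103960961 (513520 to 515887, plus strand) had 1.36, 1.01 and 1.38 FPKM in russet libraries, against 9.61, 8.12 and 7.01 FPKM in green libraries, at -2.63 ± 0.21. Gene 103960962 (516056 to 517711, minus strand) had 2.53, 2.16 and 2.1 FPKM in the russet libraries and 6.85, 8.78 and 7.98 FPKM in the green libraries, at -1.75 ± 0.17. Gene 103960964 (518099 to 521639, minus strand) had 5.65, 5.86 and 7.99 FPKM in russet libraries, against 11.5, 13.7 and 18.9 FPKM in green libraries, at -1.15 ± 0.22. The difference was largest in the first of the 3, at 6.6 times as much in green skin, against 3.48 and 2.26 times in the next genes.

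Gene 103960969 (526509 to 544503, minus strand) spans 3 other genes, of which 103960968 and 103960966 lie on the opposite strand and 103960967 on the same one. These overlaps are of whole gene spans, and the length given for 103960969, 2273 bp, is far below its span. Whether exons overlap was not examined, and where they do, reads of the 4 genes may not be separable. Gene 103960969 had 14.9, 15.8 and 14.6 FPKM in russet libraries, against 25, 19.8 and 17.8 FPKM in green libraries, at -0.45 ± 0.15, and did not pass. Within it, 103960968 (535094 to 538691, plus strand) had 5.25, 6.56 and 9.09 FPKM in the russet libraries and 13.7, 16.3 and 18.4 FPKM in the green libraries, and was lower in russet skin at -1.23 ± 0.22. Gene 103960967 (539135 to 541039, minus strand) had 2.40, 1.95 and 2.53 FPKM in russet libraries, against 2.62, 2.74 and 3.95 FPKM in green libraries, at -0.41 ± 0.23, and did not pass. Gene 103960966 (542131 to 543966, plus strand) had 5.12, 2.76 and 4.86 FPKM in the russet libraries and 20.7, 18.7 and 22.2 FPKM in the green libraries, and was lower at -2.29 ± 0.24. The fold changes of the 2 genes on the plus strand were larger in size than those of the 2 on the minus strand.

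Gene 103960970 (546145 to 549158, minus strand) had 10.3, 9.19 and 9.52 FPKM in russet libraries, against 15.7, 18.1 and 16.2 FPKM in green libraries, and was lower in russet skin at -0.78 ± 0.12. Gene 103960971 (550590 to 554164, plus strand) had 1.91, 2.31 and 1.97 FPKM in the russet libraries and 2.73, 3.03 and 3.65 FPKM in the green libraries, at -0.58 ± 0.20, without passing. The lines were separate in both. Gene 103960972 (554269 to 557670, minus strand) had 1.79, 2.60 and 2.24 FPKM in russet libraries, against 2.16, 2.85 and 3.37 FPKM in green libraries, and 103960973 (558294 to 559599, plus strand) had 2.41, 3.04 and 1.98 FPKM in russet libraries, against 4.47, 2.89 and 4.03 FPKM in green libraries. They overlapped, at -0.32 ± 0.24 and -0.60 ± 0.25. Gene 103961004 (559704 to 561795, minus strand) had 6.20, 5.98 and 7.08 FPKM in the russet libraries and 8.99, 11.1 and 9.58 FPKM in the green libraries, and was lower at -0.62 ± 0.14. The call on 103961004 held in 1 of the 6 fits that left out a library, with all its russet values below all its green values.

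Gene 103960974 (573190 to 573425, plus strand) is the shortest tested member and had 2.60, 1.24 and 0.984 FPKM in russet libraries, against 2.12, 5.82 and 7.31 FPKM in green libraries. Its log2 fold change of -1.54 ± 0.53 rested on 31 and 89 reads in russet and green skin and did not pass. Gene 103960975 (583980 to 590207, minus strand) had 12.8, 14 and 12.9 FPKM in the russet libraries and 23.0, 25.4 and 23.5 FPKM in the green libraries, and was lower in russet skin at -0.85 ± 0.10. Gene 103960976 (596824 to 599035, plus strand) had 2.60, 2.88 and 3.69 FPKM in russet libraries, against 3.16, 3.43 and 3.36 FPKM in green libraries, and 103960978 (601997 to 605189, minus strand) had 2.04, 2.53 and 2.39 FPKM in russet libraries, against 2.82, 3.66 and 4.68 FPKM in green libraries. Neither passed, at -0.13 ± 0.19 and -0.63 ± 0.23, and the lines overlapped in the first only.

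The last 3 genes tested lie on the minus strand and were all lower in russet skin. Gene 103960980 (611057 to 613814, minus strand) had 9.38, 10.6 and 10.7 FPKM in russet libraries, against 17.3, 17.5 and 18.8 FPKM in green libraries, at -0.80 ± 0.11. Gene 103960981 (617545 to 620153, minus strand) had 3.51, 3.01 and 4.35 FPKM in the russet libraries and 7.34, 10.1 and 8.24 FPKM in the green libraries, at -1.22 ± 0.20. Their lines were far apart relative to the spread in each. Gene 103960982 (620922 to 623805, minus strand) is placed in glycolysis and gluconeogenesis, the pathways between sugars and pyruvate. It had 42.6, 29.5 and 37.8 FPKM in russet libraries, against 79.1, 55.9 and 54.2 FPKM in green libraries, and was lower at -0.78 ± 0.20, a call lost in each of the 6 fits that left out a library.

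**Figure D4:**
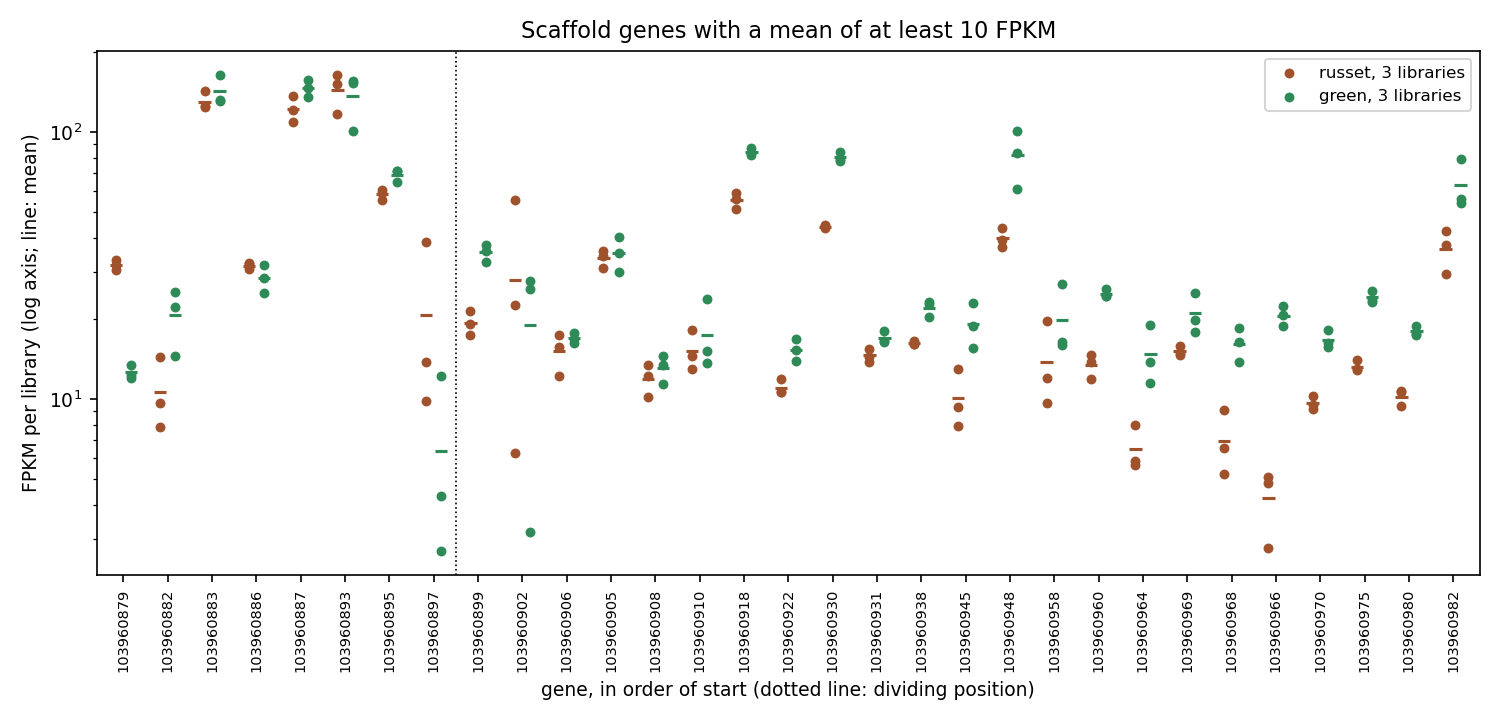
FPKM per library on a log axis for the 31 scaffold genes that averaged 10 FPKM or more, in order of start, with russet dots (brown) to the left of green dots for each gene and a line at each mean. Left of the dotted line only 103960879 of 8 genes was called, higher in russet skin, and right of it 15 of 23 were called, all lower.

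Among the genes after position 150000, the median log2 fold change was below 0 at every level of expression. Of the 23 that averaged 10 FPKM or more, 15 were lower and 0 higher, at a median log2 fold change of -0.78. Of the 45 between 1 and 10 FPKM, 19 were lower and 1 higher, at a median of -0.64. Of the 9 between 0.1 and 1 FPKM, 3 were lower and 1 higher, at a median of -0.40. Of these lower calls, 103960996 held in all 6 fits that left out a library, 103960947 in 4 and 103960903 in 1. Both strands took part, with 17 of 35 genes lower on the plus strand at a median of -0.64, and 20 of 42 lower on the minus strand at a median of -0.69. Over all genes tested 8.05% were higher and 7.29% lower. These shares were not split by level or strand, so the levels are not compared with that background.

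The size of the difference was mostly moderate. Of the 37 genes lower in russet skin after position 150000, 20 were lower by 2-fold or more and 17 by less. Leaving aside 103960927 with its 0 russet reads, the ratio of russet to green means of the other 36 had a median of 0.489, quartiles of 0.36 and 0.580 and a range of 0.144 to 0.737. For the 23 genes of at least 10 FPKM, called or not, the median ratio was 0.581 with quartiles of 0.542 and 0.799, and 16 lay between 0.4 and 0.75.

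Not all calls held when a library was left out. Of the 45 called genes, 12, 16 and 10 lost their call without A1, A2 and A3, and 14, 11 and 14 lost it without B1, B2 and B3, while none changed direction. Before position 150000 only 103960985 lost its call in any of these fits. After it, 103960920 and 16 of the lower genes did, namely 103960903, 103960917, 103960922, 103960936, 103960938, 103960940, 103960941, 103960943, 103960999, 103961000, 103960945, 103960947, 103960951, 103960964, 103961004 and 103960982. The calls on 103960922 and 103960982 held in 0 of these fits. Those on 103960903, 103960936, 103960938, 103960940, 103960943, 103961000, 103961004 and 103960920 held in 1 only.

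The difference was shared by all libraries of a line. Set against the mean of the other line, the median gene after position 150000 was at -0.66, -0.70 and -0.71 log2 units in libraries A1, A2 and A3, and at 0.70, 0.61 and 0.70 in B1, B2 and B3. In each russet library 65 to 69 of the 77 genes were below the green mean, and in each green library 65 to 71 were above the russet mean. Before position 150000 the medians were 0.42, 0.65 and 0.28 in the russet libraries, against -0.40, -0.67 and -0.49 in the green libraries.

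Before position 150000 the summed expression did not separate the lines, at 591, 539 and 575 FPKM in russet skin, against 560, 609 and 540 FPKM in green skin. The 5 most abundant genes of that stretch, none of them called, made up 81.9 to 93.6% of this sum in each library, and 5 of the 6 genes that were higher in russet skin were under 10 FPKM. After position 150000 the sums were 596, 595 and 589 FPKM in russet skin, against 943, 954 and 963 FPKM in green skin, and the 5 most abundant genes held 33.8 to 38.2% of them. For genes of at least 10 FPKM the median SD of log2 values was 0.146 in russet and 0.172 in green skin on the scaffold, against 0.159 in russet and 0.176 in green skin over all genes tested. Between 1 and 10 FPKM it was 0.233 in russet and 0.226 in green skin on the scaffold, against 0.251 and 0.264 in russet and green skin over all genes. Between 0.1 and 1 FPKM it was 0.387 in russet and 0.239 in green skin on the scaffold, where 13 genes were tested, against 0.472 and 0.479 in russet and green skin over all genes, so the spread of these low genes in green skin was the one farthest below that of all genes.

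The 25 genes under 0.1 FPKM were not tested. After position 150000 they number 15, of which 8 had no read in any library and 7 had 2 to 21 reads in all. Among them, 103961005 had 0 russet reads and 4 green reads. Before position 150000, 103960986 (34632 to 36845, plus strand) had 0 russet reads and 13 green reads. Of the green reads, 9 were in library B2, and the gene was not called in the fit without the filter on low values. With a floor of 3 reads over the russet group, green skin had 4.74 times as many per unit of depth. That value takes the green count as exact and reads as independent, so it is no lower limit.

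Other scaffolds showed the opposite direction. On NW_008988220.1, 58 of 94 genes tested were higher and 2 lower in russet skin, at a median log2 fold change of 0.95. On the shorter NW_008988726.1, 23 of 28 were higher and 0 lower, at a median of 2.23. Those scaffolds were also picked from this contrast, and no test of their difference from NW_008988240.1 was made.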

How the data were processed

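RNA-Seq libraries were made with the NEB Next Ultra kit from total RNA of fruit skin. Per the labels, the authors aligned reads with HISAT2 2.0.4 to the Chinese white pear genome, assembled transcripts with Cufflinks 2.1.1 and used DESeq 1.18.0 for their own comparison, while the sources used here do not name the assembly version. The deposited values are FPKM per gene and library, with gene positions, strands and lengths in a second table. Columns A and B were taken as russet and green from the legend of a supplementary figure, and which sample each column number stands for is not given.

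Reads were recovered from FPKM and length with a tolerance of 0.0001. With the deposited length 74.5% of values were whole, and 8439 genes needed another length. Sequencing was paired-end, and the largest library depths exceed the number of read pairs that the paper's read totals allow. The recovered reads therefore include single ends of pairs, which are not independent, and intervals and bounds from them are too tight. Russet was set against green on log2(FPKM + 0.1) by limma (version 3.58.1, R version 4.3.3) with a trend, two-sided, over genes that averaged 0.1 FPKM or more, at a Benjamini-Hochberg adjusted p under 0.05. The fit was checked on simulated data. Fold changes on this scale understate those of low genes. Values of every library are given for members with a mean of at least 1 FPKM, and other members above 0.1 FPKM are given by their range or line means, or by library where the account turns on them. The members, the dividing position and the lists were chosen with earlier results of these data known.

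Deviations of same-numbered libraries from their line means correlated at 0.195, 0.211 and 0.323 in the 3 pairs, against -0.235 to 0.0436 in pairs of unlike number. For this reason the library number was used as a replicate block, but in an alternative fit only. The study names no pairing, and the labels number the samples of the lines differently. Whether same-numbered libraries belong together is thus not known, and calls made only with the block are not among the main calls. Other alternatives changed the pseudocount, filter, scaling and model, or left out a library. Tables used pandas 2.3.3 and numpy 2.4.6 and figures matplotlib 3.10.9, under Python 3.11.15. Columns not used number 0. Sequences and related genes on other scaffolds were not analysed here.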

Additional observations from a re-analysis of the deposited data

How the results depend on the processing

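Of the genes that start before position 150000, 6 were called, against 4 to 9 in the 9 alternatives with all libraries and 5 to 7 in the 6 fits that left out a library. After position 150000, 39 were called, against 35 to 43 in the alternatives with all libraries and 24 to 30 in the fits without a library, with the lowest count without library A2. With the library number as a replicate block, 9 genes before and 43 after position 150000 were called. The block changed the call of the 9 genes named with it in the results and of no other. Over all genes, 4625 were called, 3162 to 3600 without a library and 6038 with the block. The median log2 fold change before position 150000 was 0.43, but 0.24 without the filter on low values, which adds 2 genes, and after position 150000 it was -0.64, but -0.55 with a pseudocount of 1, which shrinks the values of low genes. No median and no call changed its direction in any alternative.

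Of the 37 lower calls after position 150000, 30 were kept in every alternative with all libraries. Both higher calls there were lost with voom. The comparison with related genes on other scaffolds was not run, since no protein sequences were used here. The members were selected on this contrast, so stability says nothing about how the scaffold compares with others. Depth limits the lowest genes, for which a handful of reads decides the level.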
